A study of Mus musculus with 15 samples.

Results

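Late changes under FGF10 were followed in 6 of the 15 libraries of the series, the 3 FGF10 72 h libraries against the 3 FGF10 36 h libraries, chosen by their treatment labels. Wild-type mouse mammary gland epithelial organoids, small cultured clusters of mammary epithelium, were placed beside beads carrying FGF10, and RNA was collected after 72 h and after 36 h. The matching organoids beside beads carrying bovine serum albumin (BSA) gave 3 BSA 72 h and 3 BSA 36 h libraries, and 3 more came from 0 h. The series asked whether epithelial-mesenchymal transition (EMT) accompanies collective migration. The titles of the FGF10 72 h libraries spell the factor FGF0, and the treatment label FGF10 was followed. The labels give no strain, age, bead dose or number of animals, and do not say whether replicates came from separate cultures, so p-values measure the spread between these libraries, which may be technical. Replicates are numbered 2, 3 and 4 at FGF10 72 h and 1, 3 and 4 at FGF10 36 h, and values of single libraries are given in that order.

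FGF10 is a growth factor that mammary mesenchyme supplies and that epithelial cells receive through FGFR2 on their surface. The receptor signals through ERK, which raises the transcription factors ETV4 and ETV5 and the feedback inhibitors of the DUSP and SPRY families. Mammary epithelium holds an outer basal layer with keratins 5 and 14 and an inner luminal layer with keratins 8 and 18, from which milk protein genes are expressed.

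Depth was 12438853 to 16582856 counts per library at FGF10 72 h and 15386578 to 17408522 at FGF10 36 h, and 18140 of 54456 genes were tested. FGF10 36 h replicate 4 stood apart, at 67.5 on a first principal component that held 38.7% of the variance among the 6 libraries, where the other 5 lay between -43.2 and 19.4. The epithelial marker Epcam had 1830, 1825 and 2065 CPM (counts scaled to library size, the unit of every level given) in FGF10 72 h libraries, against 2799, 2369 and 1736 CPM in FGF10 36 h libraries. Among marker lists of other cell types, that of fibroblasts summed to 380 to 748 CPM at FGF10 72 h and 250 to 328 CPM at FGF10 36 h, without overlap. The immune list reached 104 to 177 CPM at FGF10 72 h and 113 to 292 CPM at FGF10 36 h, and the endothelial list 27.1 to 55.6 CPM at FGF10 72 h and 30.2 to 52.7 CPM at FGF10 36 h. Cd8a, Ms4a1, Myod1, Myog and Hbb-bt were at 0 in all 6.

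Between the times, 257 genes rose and 89 fell at an adjusted p under 0.05 (edgeR's quasi-likelihood test, Benjamini-Hochberg over 18140 genes), which is 1.42% and 0.491% of the genes tested. These shares are the background for every count of rises and falls in a gene list. At least 2-fold were 169 of the rises and 49 of the falls. The keratin gene Krt14, the matrix genes Mgp and Col9a3 and the chemokine genes Cxcl13 and Cxcl12 were among those higher at FGF10 72 h. The milk protein gene Csn3, the retinal dehydrogenase gene Aldh1a3, the urokinase receptor gene Plaur and the AP-1 subunit gene Fosl1 were among those lower. All 346 called genes had no overlap between the 3 and 3 libraries, as had 21.1% of all genes tested. The median log2 difference over all genes was -0.01, with 8833 genes higher and 9293 lower at FGF10 72 h. Log2 differences are FGF10 72 h over FGF10 36 h unless another pair is named, with the standard error (SE) of the fit, and means carry their SD over 3 libraries. Where a call is said to be lost, leaving out that library, or any one of the given number among the 15, put the adjusted p above the threshold.

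The counts leaned on single libraries. Without FGF10 72 h replicate 2 they were 78 rises and 21 falls, and without FGF10 72 h replicate 3 they were 88 and 21. The falls alone numbered 52 without FGF10 72 h replicate 4, 49 to 56 without any one of the BSA 72 h libraries, 57 without BSA 36 h replicate 3 and 136 without 0 h replicate 1. In a fit of only the 6 FGF10 libraries 32 of the 69 named calls were lost and 37 kept. Of those 69 genes, 20 kept the call in every alternative tried, among them Krt14, Col9a3, Plaur, Aldh1a3, Mmp2 and Cxcl13, and none turned in sign.

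**Figure D1:**
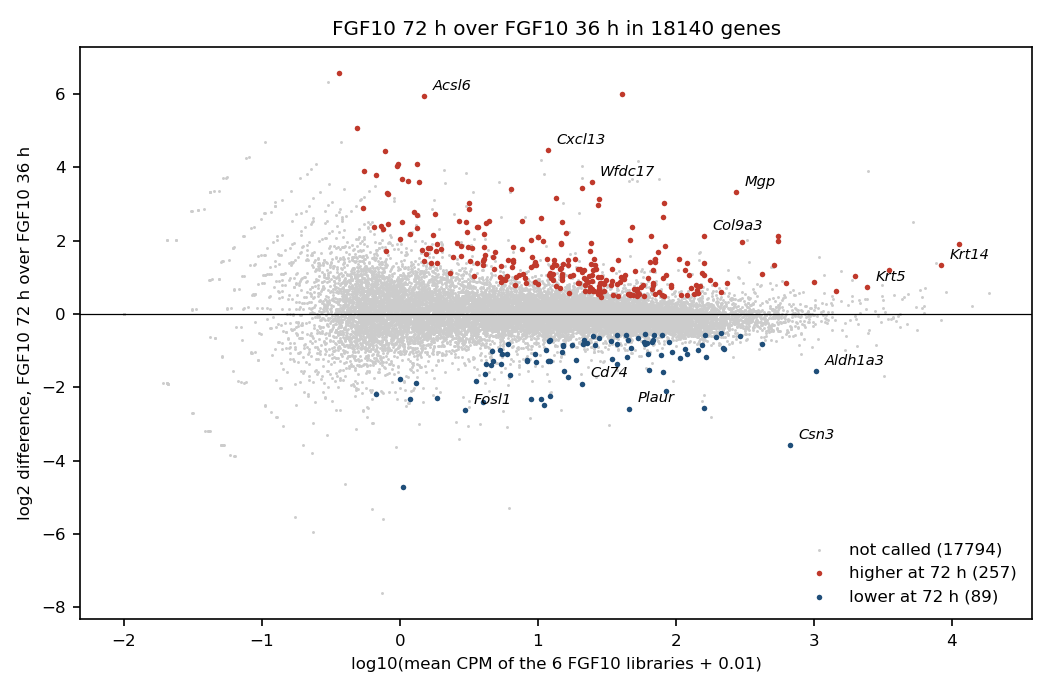
Log2 difference of FGF10 72 h over FGF10 36 h (vertical axis) against the log10 mean CPM of the 6 FGF10 libraries (horizontal axis) for 18140 genes, with the 257 rises in red and the 89 falls in blue. Krt14 lies at the upper end of the level axis among the rises, and Csn3 and Aldh1a3 lie at the high end among the falls.

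Keratin genes of the basal layer rose, and most of the rest of the basal list was not called. Krt14 had 11960, 10290 and 13620 CPM in FGF10 72 h libraries, against 4970, 4432 and 4914 CPM in FGF10 36 h libraries. Every FGF10 72 h library lay more than 2-fold above every FGF10 36 h library, and the log2 difference was 1.33 ± 0.19 (SE, n = 3 each, adjusted p = 0.00267). Krt5, its usual partner keratin, had 3068, 2833 and 3230 CPM at FGF10 72 h, against 2078, 1877 and 1542 CPM at FGF10 36 h, again without overlap (0.73 ± 0.15, adjusted p = 0.018). Krt5 lost its call without any one of the 3 FGF10 72 h libraries, up to an adjusted p of 0.0779 without replicate 2, and in the fit of only the 6 FGF10 libraries (adjusted p = 0.171). Krt14 spans bases 100093988 to 100098374 of chromosome 11 and Krt5 bases 101615505 to 101621333 of chromosome 15 (GRCm39, per the submitters' processing notes), and both are uncertain to the extent that they share fragments with related keratins.

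Of 16 tested genes of the basal and myoepithelial list, 3 rose and none fell (of all genes tested, 1.42% and 0.491%). The third was Oxtr, the oxytocin receptor through which myoepithelial cells contract. Oxtr averaged 95.9 ± 31.3 CPM at FGF10 72 h and 41.6 ± 5.15 CPM at FGF10 36 h (SD, n = 3 each), a log2 difference of 1.20 ± 0.24 (adjusted p = 0.0158) that ended in any of 4 omissions, the largest adjusted p being 0.0918 without FGF10 72 h replicate 3, and in the fit of only the 6 FGF10 libraries (0.0712). The median of the list was -0.05, close to that of all genes. Of all 18140 genes tested 9293 were lower at FGF10 72 h, and of the 16 in the list 11 were. One of these was the smooth muscle actin gene Actg2, at 148 ± 32.6 CPM and 265 ± 45.1 CPM (adjusted p = 0.0861). The summed level of the list was 19440 to 20850 CPM at FGF10 72 h and 10990 to 13900 CPM at FGF10 36 h with Krt14 counted in it. Krt14 alone averaged 11960 CPM at FGF10 72 h and 4772 CPM at FGF10 36 h. Without FGF10 36 h replicate 4 the list gave 2 rises. In whole organoids more basal cells and more keratin RNA per cell cannot be told apart.

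Genes of cell contacts and cornification gave 3 rises and no fall among 27 tested members, with a median of 0.57. Rises made up 1.42% of all genes tested. Dsc3, a desmosomal cadherin, averaged 18.9 ± 3.58 CPM at FGF10 72 h and 7.43 ± 0.812 CPM at FGF10 36 h (1.35 ± 0.30, adjusted p = 0.03). Sbsn, a secreted protein of differentiating epidermis, averaged 20.2 ± 0.547 CPM and 9.94 ± 3.21 CPM (1.02 ± 0.24, adjusted p = 0.0413). Loricrin (Lor), a cornified envelope protein, had 8.08, 6.34 and 2.25 CPM at FGF10 72 h, against 0.392, 0.603 and 1.27 CPM at FGF10 36 h (2.87 ± 0.64, adjusted p = 0.0415). These 3 calls were lost in 7 to 11 of the 15 omissions, with adjusted p up to 0.113 for Dsc3 without FGF10 72 h replicate 4, 0.144 for Sbsn without replicate 3 and 0.163 for Lor without replicate 2, and without FGF10 36 h replicate 4 the list had no call. Perp, a membrane protein of desmosomes that p53 and p63 regulate, was steadier within groups, with 1279, 1297 and 1338 CPM at FGF10 72 h, against 737, 775 and 639 CPM at FGF10 36 h (0.86 ± 0.17, adjusted p = 0.0138). Perp lost its call without FGF10 72 h replicate 3 (adjusted p = 0.0606) or replicate 2. Perp was counted in a list of p53 targets, not in the list above, and was its only call among 20 tested genes. That p53 list had a median of 0.03, with 12 genes higher and 8 lower at FGF10 72 h. Its uncalled members Plk2 (-0.78), Tnfrsf10b (-0.41) and Aen (-0.41) were lower. In the fit of only the 6 FGF10 libraries the adjusted p was 0.0766 for Perp, 0.105 for Sbsn and 0.0572 for Lor.

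Of 27 tested luminal and secretory genes, 2 fell and 1 rose (of all genes tested, 0.491% and 1.42%), with a list median of -0.03. Csn3 (chromosome 5, bases 88073438 to 88080524) encodes kappa-casein, which holds milk casein micelles in solution. Csn3 had 160, 92.8 and 58.4 CPM in FGF10 72 h libraries, against 1244, 1228 and 1238 CPM in FGF10 36 h libraries, so the later libraries were all low and spread over more than 2-fold while the earlier ones were nearly alike. The log2 difference was -3.58 ± 0.57 (adjusted p = 0.00789), and dropping FGF10 72 h replicate 3 ended the call (adjusted p = 0.0535). Csn3 stood at 93.7, 104 and 54.2 CPM in BSA 72 h libraries, against 667, 1152 and 1232 CPM in BSA 36 h libraries, a log2 difference of -3.60.

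Aldh1a3 makes retinoic acid and marks luminal progenitor cells. It had 507, 532 and 546 CPM at FGF10 72 h, against 1814, 1582 and 1282 CPM at FGF10 36 h (-1.56 ± 0.23, adjusted p = 0.00333), and this call stood in every omission. Btn1a1, a protein of the milk fat globule, went the other way, with 23.98 ± 8.06 CPM at FGF10 72 h and 9.41 ± 3.09 CPM at FGF10 36 h (1.35 ± 0.28, adjusted p = 0.0253, lost in 4 omissions, up to 0.129 without FGF10 72 h replicate 2, and at 0.0953 in the fit of only the 6 FGF10 libraries). The luminal keratin gene Krt8 averaged 3462 ± 348 CPM and 3798 ± 589 CPM and was not called. Summed over the list, luminal markers ran from 23120 to 24270 CPM at FGF10 72 h and from 29250 to 30530 CPM at FGF10 36 h. That sum includes Aldh1a3 and Csn3, which averaged 104 CPM at FGF10 72 h and 1236 CPM at FGF10 36 h. Of the 27 tested genes, 13 were higher and 14 lower at FGF10 72 h.

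**Figure D2:**
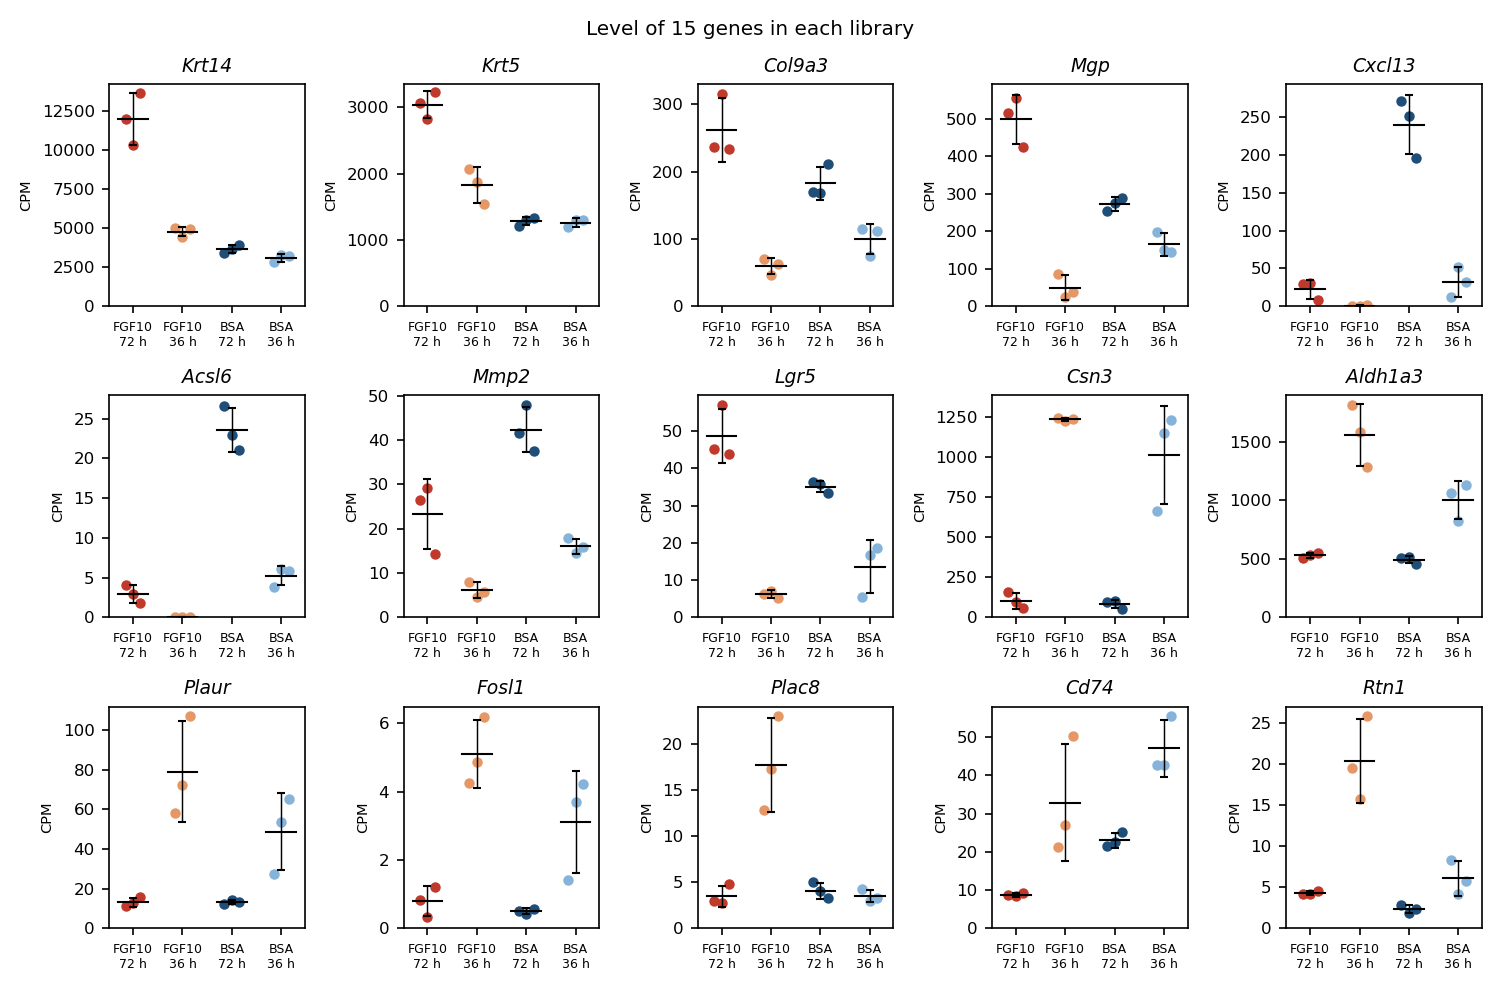
CPM (linear axes from 0) of 15 genes in each library of the FGF10 72 h, FGF10 36 h, BSA 72 h and BSA 36 h groups, with points for libraries, bars for the mean and whiskers for 1 SD (n = 3). Krt14 and Krt5 differ between the times under FGF10 and hardly under BSA, while Csn3 and Plaur are low at 72 h in both arms.

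The panel genes of EMT showed no call. The epithelial cadherin gene Cdh1 had 231, 268 and 317 CPM in FGF10 72 h libraries, against 307, 344 and 195 CPM in FGF10 36 h libraries, and the groups overlapped (-0.05 ± 0.18). The neuronal cadherin gene Cdh2 averaged 7.05 ± 1.71 CPM at FGF10 72 h and 6.15 ± 1.72 CPM at FGF10 36 h. Vimentin (Vim), a mesenchymal intermediate filament, averaged 112 ± 1.76 CPM and 92.3 ± 30.7 CPM. Snai2, a transcriptional repressor of Cdh1, averaged 67.3 ± 3.70 CPM and 68.5 ± 19.2 CPM. Zeb2, another such repressor, was under 1.2 CPM in each of the 6 libraries. It had 0.577, 0.338 and 0.244 CPM at FGF10 72 h, against 1.11, 0.713 and 0.886 CPM at FGF10 36 h, without overlap. Its log2 difference was -1.20 under FGF10 (adjusted p = 0.35) and 1.77 under BSA (adjusted p = 0.0958). Among 16 tested EMT transcription factors 1 rose, Tcf4, with 117 ± 10.4 CPM at FGF10 72 h and 69.5 ± 14.3 CPM at FGF10 36 h (0.75 ± 0.18, adjusted p = 0.0496), a call lost in 11 of 15 omissions, up to 0.212 without FGF10 72 h replicate 3, and at 0.108 in the fit of only the 6 FGF10 libraries. Without FGF10 36 h replicate 4 that list gave no rise and 1 fall. Among all genes tested, 1.42% rose and 0.491% fell. Of the 16 factors, 7 were higher and 9 lower at FGF10 72 h. Between the times 7 did not overlap, beside 21.1% of all genes tested. Among them Snai1 averaged 1.73 ± 0.545 CPM at FGF10 72 h and 0.666 ± 0.379 CPM at FGF10 36 h (adjusted p = 0.261). Elf3 averaged 31.8 ± 3.39 CPM and 47.1 ± 11.6 CPM (adjusted p = 0.12). Twist1 had 11 and 3 fragments in all (adjusted p = 0.269). None of 11 cadherins and catenins and none of 15 tight junction genes was called.

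Genes that act on the matrix moved in both directions. Of 26 tested matrix proteases and inhibitors, 3 rose and 2 fell (of all genes tested, 1.42% and 0.491%), with a median of 0.12. The gelatinase gene Mmp2 had 26.4, 29.1 and 14.3 CPM at FGF10 72 h, against 8.04, 4.55 and 5.76 CPM at FGF10 36 h (1.93 ± 0.30, adjusted p = 0.00443), a call kept in every omission. Mmp14, the membrane protease that activates the MMP2 proenzyme, averaged 163 ± 20.2 CPM and 111 ± 4.42 CPM (0.56 ± 0.12, adjusted p = 0.0324). Mmp11 averaged 11.8 ± 2.54 CPM and 3.48 ± 1.88 CPM (1.76 ± 0.33, adjusted p = 0.0113). Timp1, an inhibitor of these proteases, fell to 39.8 ± 11.9 CPM at FGF10 72 h, against 85.4 ± 15.8 CPM at FGF10 36 h (-1.10 ± 0.24, adjusted p = 0.0327). Left-out libraries ended the call of Mmp14 in 9 cases, up to 0.15 without FGF10 72 h replicate 3, and that of Timp1 in 8, up to 0.145 without FGF10 72 h replicate 2. The call of Mmp11 ended without FGF10 72 h replicate 3 (adjusted p = 0.0611) or replicate 2. With only the 6 FGF10 libraries fitted, the adjusted p was 0.167 for Mmp14, 0.0865 for Timp1 and 0.0751 for Mmp11. Without FGF10 36 h replicate 4 the list gave 2 rises and 1 fall.

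Plaur encodes the receptor that holds urokinase, an activator of plasminogen, at the cell surface. It had 11.2, 12.6 and 15.7 CPM in FGF10 72 h libraries, against 57.9, 72.2 and 107 CPM in FGF10 36 h libraries, and the lowest FGF10 36 h library stood more than 3-fold above the highest FGF10 72 h library. The log2 difference was -2.58 ± 0.32 (adjusted p = 0.00183), and no alternative removed the call. Levels under BSA were 12.3, 14.4 and 13.3 CPM at BSA 72 h, against 27.2, 53.6 and 64.9 CPM at BSA 36 h, a call of the same direction (-1.86, adjusted p = 0.0313).

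Fosl1 encodes FRA1, a subunit of AP-1, the transcription factor that growth factor signalling through ERK raises. It had 0.834, 0.338 and 1.22 CPM at FGF10 72 h, against 4.25, 4.88 and 6.20 CPM at FGF10 36 h (-2.63 ± 0.54, adjusted p = 0.0203), and the groups were far apart. Dropping FGF10 72 h replicate 3 ended the call (adjusted p = 0.113), as did dropping replicate 2 of that group or FGF10 36 h replicate 4. Lif, a cytokine of the interleukin 6 family, had 5.07, 6.84 and 11.5 CPM at FGF10 72 h, against 33.1, 20.9 and 14.9 CPM at FGF10 36 h (-1.55 ± 0.36, adjusted p = 0.0409, lost in 9 omissions, up to 0.184 without FGF10 72 h replicate 3, and at 0.0947 in the fit of only the 6 FGF10 libraries). Acsl6, an acyl-CoA synthetase for long-chain fatty acids, is the opposite case. It had 4.11, 2.96 and 1.77 CPM at FGF10 72 h, against 0.0653, 0.0548 and 0 CPM at FGF10 36 h. Those were 128 and 2 fragments in all, a ratio of 72.1 scaled for depth with a 95% interval of 19.5 to 601 that covers counting error only (adjusted p = 0.000491).

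The letters TGANTCA, with any base at N, were searched as a broad form of the AP-1 site. The promoters of Plaur, Lif and Acsl6 are shown because each holds that motif, as TGACTCA. Of these called genes 2 fell and 1 rose. They were chosen after their values were seen. The stretches are the 250 bases before the RefSeq start on the plus strand of GRCm38.p6, with the motif in capitals, at chr7:24462233-24462482 for Plaur, chr11:4257318-4257567 for Lif and chr11:54303574-54303823 for 1 of the 3 Acsl6 starts.
Plaur: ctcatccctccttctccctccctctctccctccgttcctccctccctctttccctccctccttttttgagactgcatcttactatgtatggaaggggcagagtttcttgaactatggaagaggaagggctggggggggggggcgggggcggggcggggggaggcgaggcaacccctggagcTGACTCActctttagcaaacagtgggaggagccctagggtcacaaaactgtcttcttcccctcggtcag
Lif: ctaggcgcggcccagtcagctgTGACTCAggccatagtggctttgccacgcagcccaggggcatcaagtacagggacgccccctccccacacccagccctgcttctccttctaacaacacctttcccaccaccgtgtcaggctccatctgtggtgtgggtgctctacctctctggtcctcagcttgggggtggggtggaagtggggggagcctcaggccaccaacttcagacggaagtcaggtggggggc
Acsl6: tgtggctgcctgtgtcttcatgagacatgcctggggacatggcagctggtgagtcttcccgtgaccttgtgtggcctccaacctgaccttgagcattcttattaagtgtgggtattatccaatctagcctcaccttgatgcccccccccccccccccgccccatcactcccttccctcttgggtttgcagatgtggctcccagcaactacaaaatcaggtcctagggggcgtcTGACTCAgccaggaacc

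The motif begins at base -69 from the start in Plaur, -228 in Lif and -17 in Acsl6. Searched on both strands in windows from 250 bases before to 50 after the start, it was present for 9 of 67 falling genes with a promoter in the RefSeq table, or 13.4%, and for 19 of 196 rising genes, or 9.69%. Of the 11818 tested genes with an entry, 6.79% held it, as did 7.81% of all 32851 windows. These are matches of letters with any base at N, not measured binding.

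Receptor feedback genes were not called. Dusp6, an ERK phosphatase, had 38.6, 40.0 and 56.4 CPM in FGF10 72 h libraries, against 72.6, 69.1 and 36.8 CPM in FGF10 36 h libraries, with FGF10 36 h replicate 4 below all others. Etv4 averaged 7.42 ± 2.37 CPM at FGF10 72 h and 9.99 ± 3.63 CPM at FGF10 36 h, and Etv5 averaged 24.7 ± 5.16 CPM and 27.1 ± 5.59 CPM. Spry4, an inhibitor upstream of ERK, did not overlap between the groups at 1.49 ± 0.293 CPM and 2.54 ± 0.275 CPM, yet missed the threshold (-0.77 ± 0.28, adjusted p = 0.178). The receptor gene Fgfr2 averaged 63.0 ± 10.5 CPM and 76.0 ± 20.5 CPM (-0.27 ± 0.20). Of the 24 tested genes of FGF and ERK feedback, Fosl1 fell and the receptor gene Fgfr1 rose, to 87.2 ± 16.7 CPM at FGF10 72 h, against 48.9 ± 5.93 CPM at FGF10 36 h (0.84 ± 0.18, adjusted p = 0.0286, lost in 4 omissions, up to 0.152 without FGF10 72 h replicate 3, and at 0.0849 in the fit of only the 6 FGF10 libraries). The list median was -0.20, and without FGF10 36 h replicate 4 it had no call. Over all genes tested, 1.42% rose and 0.491% fell.

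Other growth factor pathways had single calls, apart from WNT. Of 21 tested WNT targets and antagonists 4 rose and none fell (of all genes tested, 1.42% and 0.491%), with a median of 0.13. Lgr5, a receptor for R-spondins and a WNT target, had 45.2, 57.0 and 44.0 CPM at FGF10 72 h, against 6.27, 7.18 and 5.06 CPM at FGF10 36 h (2.98 ± 0.53, adjusted p = 0.0143). The groups lay 6-fold or more apart, and the call was still lost in 4 omissions, up to 0.0706 without FGF10 36 h replicate 4. The secreted antagonist gene Sfrp1 averaged 26.5 ± 4.40 CPM and 5.76 ± 3.74 CPM (2.205 ± 0.50), the intracellular antagonist gene Nkd2 161 ± 42.0 CPM and 70.8 ± 19.6 CPM (1.19 ± 0.28), and the receptor gene Fzd7 34.4 ± 2.04 CPM and 21.3 ± 6.05 CPM (0.69 ± 0.17). Their adjusted p-values lay just under the threshold, at 0.045 for Sfrp1, 0.0445 for Nkd2 and 0.0491 for Fzd7, and each was lost in 11 or 12 omissions, up to 0.165 for Sfrp1 without FGF10 72 h replicate 3, 0.142 for Nkd2 without replicate 4 and 0.193 for Fzd7 without replicate 2. Fitted on the 6 FGF10 libraries alone, Nkd2 (adjusted p = 0.0782) and Fzd7 (0.179) also lost the call. Without FGF10 36 h replicate 4 the list gave 1 rise.

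Fst, which binds and blocks activins, fell to 65.6 ± 14.1 CPM at FGF10 72 h, against 151 ± 48.8 CPM at FGF10 36 h (-1.20 ± 0.20, adjusted p = 0.00749, and 0.0514 without FGF10 72 h replicate 3), the only call among 27 TGF-beta and BMP genes. Hbegf, a ligand of the EGF receptor, fell to 6.92 ± 1.22 CPM at FGF10 72 h, against 16.7 ± 1.41 CPM at FGF10 36 h (-1.28 ± 0.30, adjusted p = 0.0449, lost in 11 omissions, up to 0.159 without FGF10 72 h replicate 2), the only call among 17 genes of that family. The NOTCH ligand gene Dll1 rose, to 39.1 ± 5.24 CPM, against 21.8 ± 5.43 CPM (0.84 ± 0.18, adjusted p = 0.0237, lost in 5 omissions, up to 0.133 without FGF10 72 h replicate 3), the only call among 15 NOTCH genes. Since 1.42% of all genes tested rose and 0.491% fell, each single call is read as that of its gene and not of its list. In the fit of only the 6 FGF10 libraries the adjusted p was 0.0782 for Fst and 0.107 for Dll1. Without FGF10 36 h replicate 4 neither the EGF family nor the NOTCH list had a call, and the TGF-beta and BMP list had 1 rise and 1 fall.

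The matrix genes Mgp, Col9a3 and Matn4 rose. Matrix Gla protein (Mgp), which limits calcification, had 514, 554 and 425 CPM in FGF10 72 h libraries, against 86.8, 23.9 and 38.5 CPM in FGF10 36 h libraries (3.32 ± 0.56, adjusted p = 0.0113, and 0.0627 without FGF10 36 h replicate 4). Col9a3, a chain of collagen IX, had 236, 316 and 233 CPM, against 70.2, 46.6 and 63.3 CPM (2.12 ± 0.21, adjusted p = 0.0003). Matn4, a matrilin that links matrix fibres, had 39.8, 47.1 and 27.2 CPM, against 4.97, 3.34 and 2.28 CPM (3.43 ± 0.47, adjusted p = 0.00333). In each of the 3 genes every FGF10 72 h library was several-fold above every FGF10 36 h library.

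Basement membrane genes and their receptors gave 1 rise and 2 falls among 33 tested, and 2 rises and no fall without FGF10 36 h replicate 4. Rises made up 1.42% and falls 0.491% of all genes tested. The collagen IV chain gene Col4a6 rose, to 44.9 ± 4.31 CPM at FGF10 72 h, against 24.3 ± 2.05 CPM at FGF10 36 h (0.89 ± 0.15, adjusted p = 0.00762). Itga3, a laminin receptor subunit, had 50.6, 68.9 and 78.7 CPM at FGF10 72 h, against 105, 106 and 127 CPM at FGF10 36 h (-0.77 ± 0.16, adjusted p = 0.0198, lost in 3 omissions, up to 0.0984 without FGF10 72 h replicate 2). Fermt1, the kindlin that activates integrins in epithelia, averaged 152 ± 19.7 CPM and 294 ± 90.7 CPM (-0.95 ± 0.22, adjusted p = 0.036, lost in 8 omissions, up to 0.179 without FGF10 72 h replicate 2). With only the 6 FGF10 libraries fitted, the adjusted p was 0.125 for Itga3 and 0.139 for Fermt1. Itga11, a collagen receptor subunit of low level, rose, with 4.94, 8.45 and 3.72 CPM at FGF10 72 h, against 0.653, 0.932 and 0.443 CPM at FGF10 36 h (3.04 ± 0.45, adjusted p = 0.00309).

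Fibroblast markers were higher in sum at FGF10 72 h, where these matrix genes were also higher. Of 23 tested fibroblast markers 2 rose (1 without FGF10 36 h replicate 4), the proteoglycan gene Bgn, with 132, 143 and 66.6 CPM at FGF10 72 h, against 28.7, 37.8 and 38.7 CPM at FGF10 36 h (1.69 ± 0.30, adjusted p = 0.0107), and the growth factor receptor gene Pdgfra, at 2.22 ± 0.0544 CPM and 0.658 ± 0.149 CPM (1.75 ± 0.41, adjusted p = 0.0428). Bgn lost its call without FGF10 72 h replicate 3 (adjusted p = 0.0541) or replicate 2, and Pdgfra in 11 omissions, up to 0.135 without FGF10 72 h replicate 3, and in the fit of only the 6 FGF10 libraries (0.0514). The fibroblast list summed to 650, 748 and 380 CPM in FGF10 72 h libraries, against 328, 250 and 275 CPM in FGF10 36 h libraries, without overlap. Of its 23 tested genes, 14 were higher and 9 lower at FGF10 72 h, and their median log2 difference was 0.17. Its 2 rises stand beside rises in 1.42% of all genes tested. The part of fibroblasts in the rises of matrix genes was not tested.

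**Figure D3:**
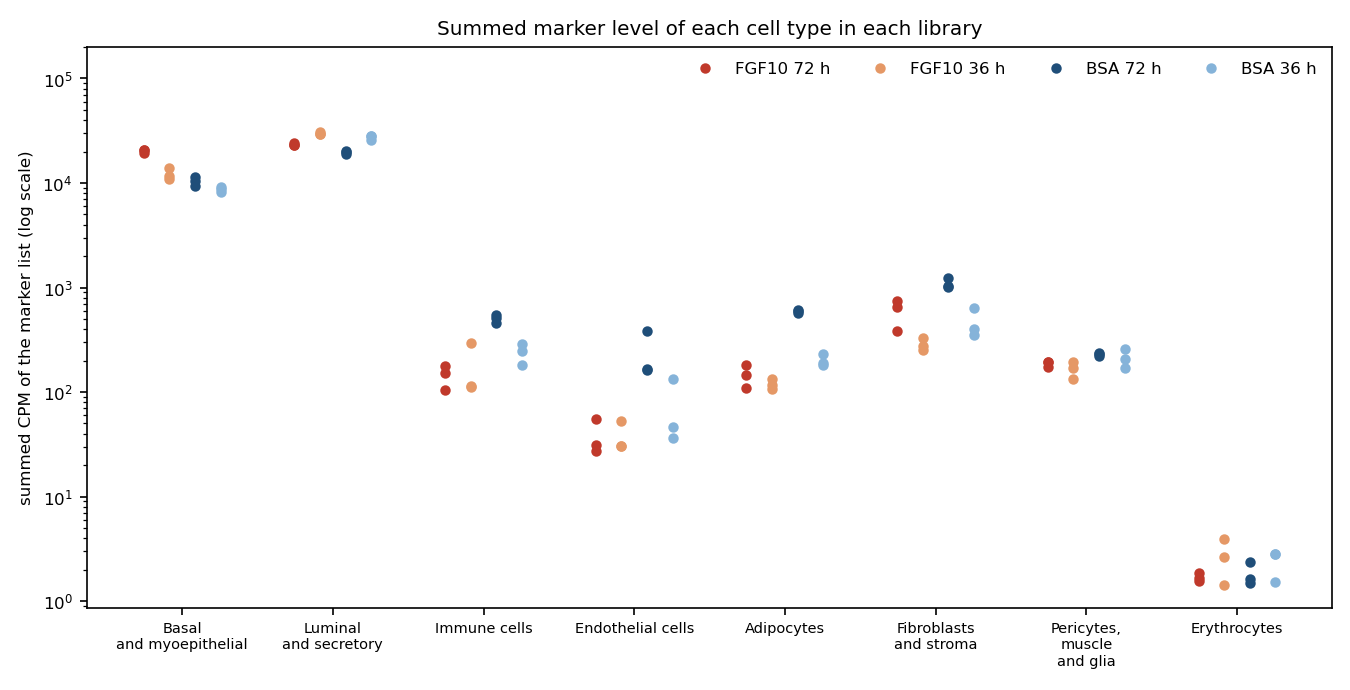
Summed CPM (log scale) of the marker list of each cell type, with 1 point for each library of the FGF10 72 h, FGF10 36 h, BSA 72 h and BSA 36 h groups. The basal sum is higher and the luminal sum lower at FGF10 72 h than at FGF10 36 h. Of the 27 luminal genes tested, 13 are higher and 14 lower at FGF10 72 h. Krt14 averages 11960 CPM of the basal sum at FGF10 72 h and 4772 CPM at FGF10 36 h, and 11 of the 16 basal genes are lower at FGF10 72 h. The endothelial, adipocyte and immune sums of the FGF10 libraries lie below those at BSA 72 h.

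The chemokine genes Cxcl13 and Cxcl12 rose. Cxcl13, which attracts B cells, had 28.9, 31.1 and 8.41 CPM at FGF10 72 h, against 0.784, 0.713 and 1.58 CPM at FGF10 36 h (4.47 ± 0.73, adjusted p = 0.0107). Cxcl12, the ligand of CXCR4, had 157, 188 and 91.6 CPM, against 12.5, 25.7 and 15.8 CPM (3.02 ± 0.62, adjusted p = 0.0324, lost in 8 omissions, up to 0.118 without FGF10 72 h replicate 3). For both genes replicate 4 was the lowest of the FGF10 72 h libraries and still above every FGF10 36 h library. Cxcl13 averaged 240 CPM at BSA 72 h and 32.1 CPM at BSA 36 h (log2 difference 2.90, not called). Cxcl12 averaged 355 CPM and 171 CPM there (1.05, not called). The means at FGF10 72 h, 22.8 CPM for Cxcl13 and 146 CPM for Cxcl12, lay below those at BSA 36 h. Of the 43 tested genes of inflammation, chemokines and antimicrobials, 2 rose and 2 fell, where 1.42% and 0.491% of all genes tested did. In that list 35 genes had lower fitted levels, with a median of -0.97. Of all 18140 genes tested, 9293 were lower. The list summed to 5971 to 7380 CPM at FGF10 72 h and 3703 to 12050 CPM at FGF10 36 h, with overlap. In BSA 72 h over BSA 36 h its median was -0.87. Ptges, which makes prostaglandin E2, fell to 20.4 ± 3.64 CPM at FGF10 72 h, against 48.1 ± 11.996 CPM at FGF10 36 h (-1.24 ± 0.27, adjusted p = 0.0284, lost in 6 omissions, up to 0.132 without FGF10 72 h replicate 2), and Lif was the other fall. The list gave 1 rise and 1 fall without FGF10 36 h replicate 4.

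Cd74 and H2-Aa of the immune list and Psmb9 and Psmb8 of the interferon list fell. Cd74, the invariant chain of MHC class II, had 8.66, 8.36 and 9.32 CPM in FGF10 72 h libraries, against 21.3, 26.9 and 50.2 CPM in FGF10 36 h libraries (-1.90 ± 0.26, adjusted p = 0.00206). H2-Aa, a class II chain with close relatives, averaged 1.56 ± 0.24 CPM and 5.51 ± 3.29 CPM (-1.82 ± 0.42, adjusted p = 0.0431, lost in 9 omissions, up to 0.189 without FGF10 72 h replicate 2). In both genes FGF10 36 h replicate 4 held the highest value. The immunoproteasome genes Psmb9, at 48.5 ± 3.46 CPM and 71.0 ± 9.88 CPM (-0.55 ± 0.13), and Psmb8, at 111 ± 7.33 CPM and 201 ± 70.8 CPM (-0.85 ± 0.20), were the 2 falls among 35 interferon response genes, whose median was -0.58. Both were lost in several omissions (11 for Psmb9 and 9 for Psmb8, up to 0.207 and 0.181 without FGF10 72 h replicate 3), and without FGF10 36 h replicate 4 that list had no call. Fitted on the 6 FGF10 libraries alone, the adjusted p was 0.104 for H2-Aa, 0.173 for Psmb9 and 0.182 for Psmb8. In BSA 72 h over BSA 36 h the median of the interferon list was -0.62. Falls under FGF10 made up 0.491% of all genes tested. The immune list, which holds Cd74 and H2-Aa, gave 2 falls among 18 tested (1 without FGF10 36 h replicate 4) and overlapped in sum between the times. The part of immune cells in these falls was not tested.

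Several of the clearest changes belonged to no list. Pik3ip1, which restrains phosphoinositide 3-kinase, had 60.3, 57.8 and 51.4 CPM at FGF10 72 h, against 19.6, 21.9 and 19.6 CPM at FGF10 36 h (1.47 ± 0.14, adjusted p = 0.0003). Il17rb, the receptor for interleukin 25, had 13.9, 15.6 and 13.7 CPM, against 3.01, 4.28 and 3.29 CPM (2.02 ± 0.20, adjusted p = 0.000311). Clec11a, a secreted growth factor with a lectin domain, had 22.5, 24.8 and 22.2 CPM, against 5.68, 5.43 and 7.21 CPM (1.92 ± 0.21, adjusted p = 0.000491). Within each time these 3 genes varied little, and the gap between times was more than 2-fold in every pair of libraries. In BSA 72 h over BSA 36 h Pik3ip1 was also called higher (0.79, adjusted p = 0.0313). Il17rb (0.89) and Clec11a (0.63) had the same direction there without a call.

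Among the falls, Rtn1, a reticulon of the endoplasmic reticulum, had 4.17, 4.14 and 4.51 CPM at FGF10 72 h, against 19.5, 15.7 and 25.8 CPM at FGF10 36 h (-2.25 ± 0.27, adjusted p = 0.000789). Parp6, an ADP-ribosyltransferase, averaged 33.2 ± 3.32 CPM and 95.9 ± 24.9 CPM (-1.53 ± 0.20, adjusted p = 0.00168), and Esd, an esterase that clears formaldehyde adducts, 102 ± 5.50 CPM and 231 ± 57.9 CPM (-1.18 ± 0.17, adjusted p = 0.00267). Rbp7, a retinol-binding protein, had 50.5, 34.0 and 55.8 CPM, against 172, 138 and 515 CPM, and Cited1, a transcriptional coregulator, 34.5, 27.5 and 34.7 CPM, against 96.6, 80.9 and 234 CPM. FGF10 36 h replicate 4 held the high value of both, and without it the fall of Rbp7 and the fall of Cited1 lost their calls, as they did without any one of the FGF10 72 h libraries, up to an adjusted p of 0.148 for Rbp7 and 0.155 for Cited1 without FGF10 72 h replicate 3. Rbp7 also lost it in the fit of only the 6 FGF10 libraries (0.0537). In BSA 72 h over BSA 36 h Rtn1 (-1.37, adjusted p = 0.0473) and Esd (-0.81, adjusted p = 0.0486) were also called lower.

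Wfdc17, a small protein with a whey acidic protein domain, had 68.9, 37.8 and 29.6 CPM at FGF10 72 h, against 2.81, 1.43 and 7.02 CPM at FGF10 36 h (3.61 ± 0.47, adjusted p = 0.00267). Its relative Wfdc18, chosen after its values were seen, had 21610, 15270 and 16500 CPM, against 5236, 2903 and 6006 CPM (1.92 ± 0.27). The calls of both are uncertain, since fragments common to such paralogs were left out of the counts.

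Lysosomal genes gave 3 rises and no fall among 36 tested, with a median of 0.19. Rises made up 1.42% of all genes tested. Ctsd, the main aspartic protease of lysosomes, had 1701, 1746 and 1823 CPM at FGF10 72 h, against 1152, 1138 and 1143 CPM at FGF10 36 h (0.62 ± 0.14, adjusted p = 0.0286, lost in 8 omissions, up to 0.117 without FGF10 72 h replicate 3, and at 0.185 in the fit of only the 6 FGF10 libraries). Ctsa, the protective protein of lysosomal glycosidases, averaged 191 ± 6.56 CPM and 111 ± 11.9 CPM (0.78 ± 0.13, adjusted p = 0.00478, and 0.0657 in a fit of only these 6 libraries). Hexa, a hexosaminidase subunit, averaged 31.8 ± 6.22 CPM and 15.4 ± 1.71 CPM (1.04 ± 0.19, adjusted p = 0.0107, lost without FGF10 72 h replicate 2, at 0.0636, or replicate 3).

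Chaperone and oxidative defence genes were lower where called. Falls made up 0.491% and rises 1.42% of all genes tested. The heat shock genes Hsph1, at 34.0 ± 3.96 CPM and 56.0 ± 6.54 CPM (-0.72 ± 0.14, adjusted p = 0.0143), and Hspa4l, at 41.6 ± 4.24 CPM and 65.9 ± 8.78 CPM (-0.66 ± 0.15, adjusted p = 0.0413), were 2 falls among 17. Srxn1, an NRF2 target that repairs oxidised peroxiredoxins, was the 1 fall among 29, at 49.97 ± 4.33 CPM and 84.6 ± 12.5 CPM (-0.76 ± 0.14, adjusted p = 0.0113). In the integrated stress response the mitochondrial folate enzyme genes Mthfd2 and Aldh1l2 moved apart. Mthfd2 fell to 18.7 ± 3.45 CPM at FGF10 72 h, against 33.5 ± 5.68 CPM at FGF10 36 h (-0.84 ± 0.20, adjusted p = 0.042), and Aldh1l2 rose to 8.93 ± 1.20 CPM, against 3.19 ± 1.20 CPM (1.48 ± 0.26, adjusted p = 0.00879). Left-out libraries raised the adjusted p to 0.0947 for Hsph1, 0.2 for Hspa4l and 0.204 for Mthfd2 without FGF10 72 h replicate 2, to 0.0549 for Srxn1 without FGF10 72 h replicate 4 and to 0.0514 for Aldh1l2 without FGF10 72 h replicate 3. The calls were lost in 2 omissions for Hsph1, 9 for Hspa4l, 8 for Mthfd2, 2 for Srxn1 and 1 for Aldh1l2. All 5 were also lost in the fit of only the 6 FGF10 libraries, at 0.0844 for Hsph1, 0.107 for Hspa4l, 0.0934 for Mthfd2, 0.0771 for Srxn1 and 0.0567 for Aldh1l2. Without FGF10 36 h replicate 4 the chaperone list gave 1 rise and 2 falls, the NRF2 list 3 falls and the stress response list 1 rise.

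Proliferation and growth lists gave no call. All 45 tested genes of DNA replication had lower fitted levels at FGF10 72 h, with a median of -0.45. So had 38 of 40 mitosis genes, with a median of -0.36, and 31 of 31 ribosome biogenesis genes, with a median of -0.31. Of all 18140 genes tested, 9293 were lower. The proliferation marker Mki67 had 55.9, 44.7 and 76.8 CPM at FGF10 72 h, against 77.6, 66.0 and 89.6 CPM at FGF10 36 h, and the groups overlapped. In BSA 72 h over BSA 36 h the medians were -0.86 for DNA replication and -1.002 for mitosis. Glycolysis, cholesterol and fatty acid lists also had no call, with medians between -0.01 and 0.13.

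Transcripts of the mitochondrial genome took 4.31 ± 0.36% of counts at FGF10 72 h and 2.89 ± 1.56% at FGF10 36 h. The single values were 4.55%, 4.49% and 3.90% at FGF10 72 h, against 3.97%, 3.60% and 1.11% at FGF10 36 h, with FGF10 36 h replicate 4 the low one. The difference of 1.42 percentage points had an exact two-sided permutation p of 0.2, where 3 against 3 cannot go below 0.1, and it was 0.529 points without that library. All 13 mitochondrial transcripts were higher at FGF10 72 h and none was called. Of all 18140 genes tested, 8833 were higher.

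**Figure D4:**
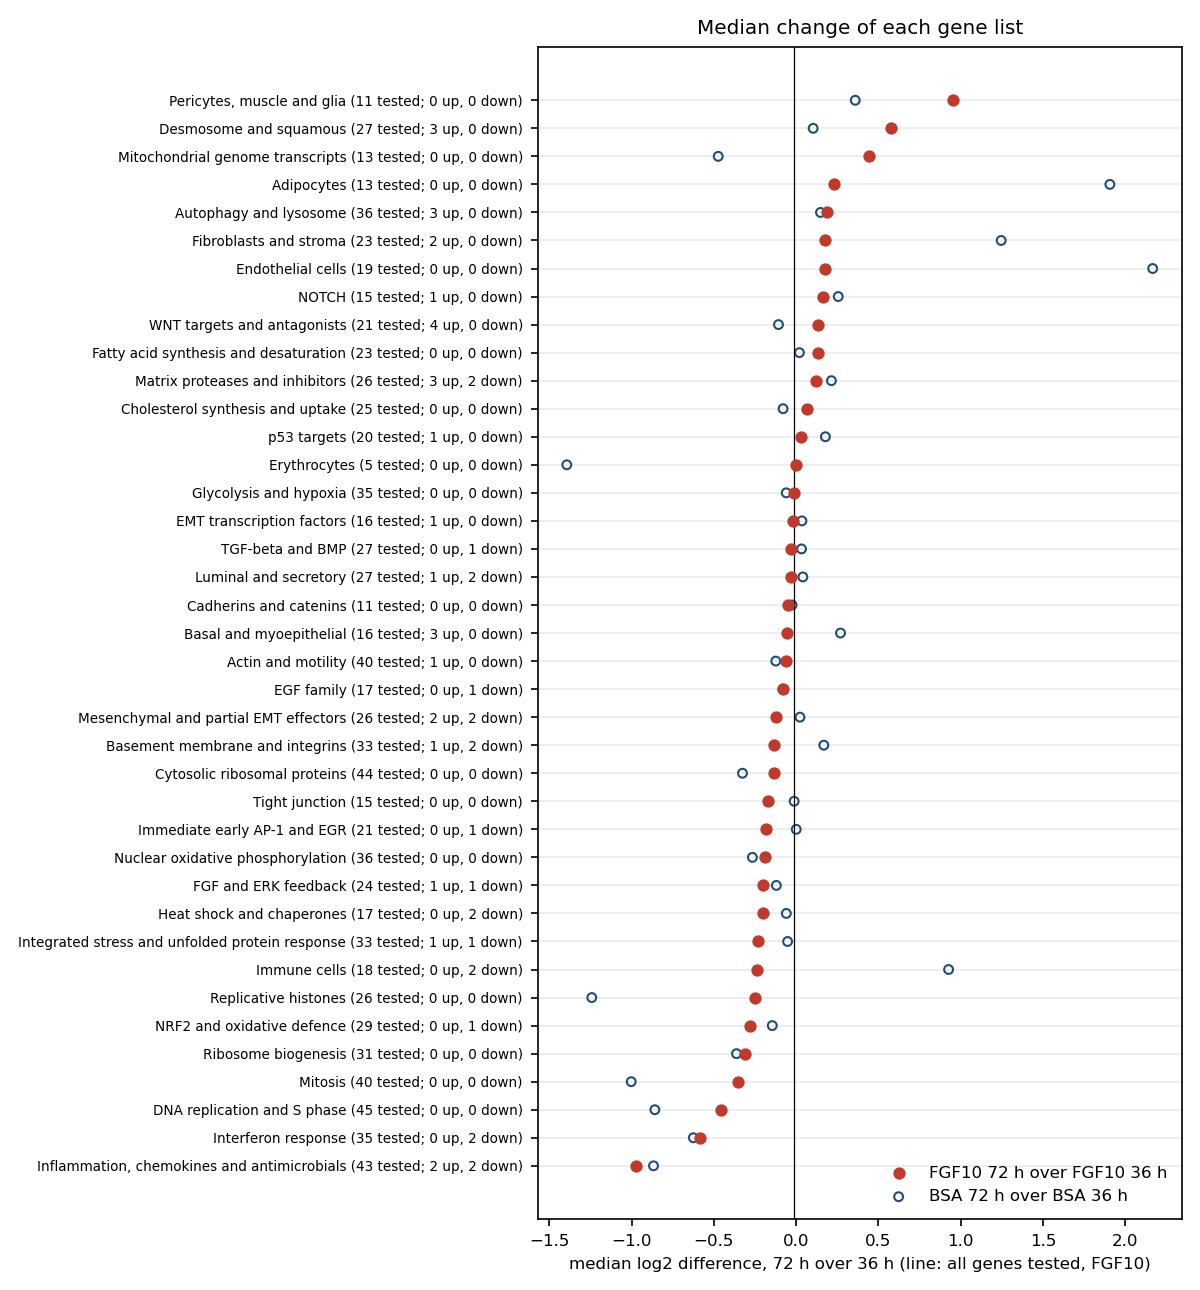
Median log2 difference of each of 39 gene lists, with filled points for FGF10 72 h over FGF10 36 h and open points for BSA 72 h over BSA 36 h, and with the number of genes tested, higher and lower under FGF10 beside each name. The inflammation list lies lowest under FGF10, at -0.97, and at -0.87 under BSA. The endothelial list lies at 0.17 under FGF10 and 2.17 under BSA.

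The same interval under BSA was set beside these changes. Its libraries differ from those of the FGF10 contrast, but the same fit of all groups gave both, so the arms are not independent. Without any single BSA 72 h library the falls under FGF10 numbered 49 to 56. Deviations of BSA and FGF10 libraries with the same number correlated at 0.449 for replicate 1 and 0.286 for replicate 3 at 36 h. At 72 h they correlated at 0.00049 to 0.0777. The effect of this dependence on the shared directions was not tested. Of the 257 rises under FGF10, 244 (94.9%) had the same direction in BSA 72 h over BSA 36 h, and of the 89 falls 83 (93.3%), against 66.7% of all genes tested. The median log2 difference of the rises was 1.27 under FGF10 and 0.68 under BSA, and that of the falls was -1.09 and -0.46. The members were called in the FGF10 arm, which favours larger values there. Under BSA 85 genes were called (0.469%), of which 49 were called under FGF10, all in the same direction, or 57.6% of the BSA calls and 14.2% of the FGF10 calls. Among those 49 were Csn3, Plaur, Pik3ip1, Rtn1, Esd, Wfdc17, Wfdc18, Matn4, Itga11, Mmp2 and Acsl6. That count of 85 was 0 without either BSA 36 h replicate 2 or 3 or any one of the BSA 72 h libraries, and 30 once BSA 36 h replicate 1 was dropped. Dropping FGF10 72 h replicate 3 gave 20, dropping 0 h replicate 1 gave 538, and dropping FGF10 36 h replicate 4 gave 569.

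No gene passed the test of the change itself between arms in edgeR, where the smallest adjusted p was 0.523. There 998 of 18140 genes had an unadjusted p under 0.05, a share close to the 0.05 that arises with no difference. The Wald test of DESeq2 called 18 genes and limma voom none. Krt14 (adjusted p = 0.0202), Krt5 (0.0255) and Krt16 (0.00121) were 3 of the DESeq2 calls, each with a more positive change under FGF10 than under BSA, and Plac8 (0.00121) was one with a more negative change. Names from the DESeq2 calls were chosen after their values were seen.

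The values behind those 4 genes differ in kind. Krt14 had 3392, 3691 and 3917 CPM at BSA 72 h, against 2806, 3274 and 3207 CPM at BSA 36 h, a log2 difference of 0.24 beside 1.33 under FGF10. Krt5 had 1213, 1308 and 1337 CPM at BSA 72 h, against 1189, 1302 and 1297 CPM at BSA 36 h. Krt16, a keratin of activated epidermis, had 70.5, 63.5 and 99.9 CPM at FGF10 72 h, against 41.8, 44.2 and 30.4 CPM at FGF10 36 h, and missed the threshold there (1.01 ± 0.25, adjusted p = 0.0624). Under BSA it went the other way, with 13.7, 15.5 and 10.5 CPM at BSA 72 h, against 20.9, 25.4 and 34.8 CPM at BSA 36 h (-1.03, adjusted p = 0.0842). Plac8, a small cysteine-rich protein, had 3.02, 2.70 and 4.81 CPM at FGF10 72 h, against 12.9, 17.4 and 23.1 CPM at FGF10 36 h (-2.32 ± 0.34, adjusted p = 0.00379). Under BSA it was low at both times, with 5.03, 4.01 and 3.29 CPM at BSA 72 h, against 4.28, 2.97 and 3.33 CPM at BSA 36 h.

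**Figure D5:**
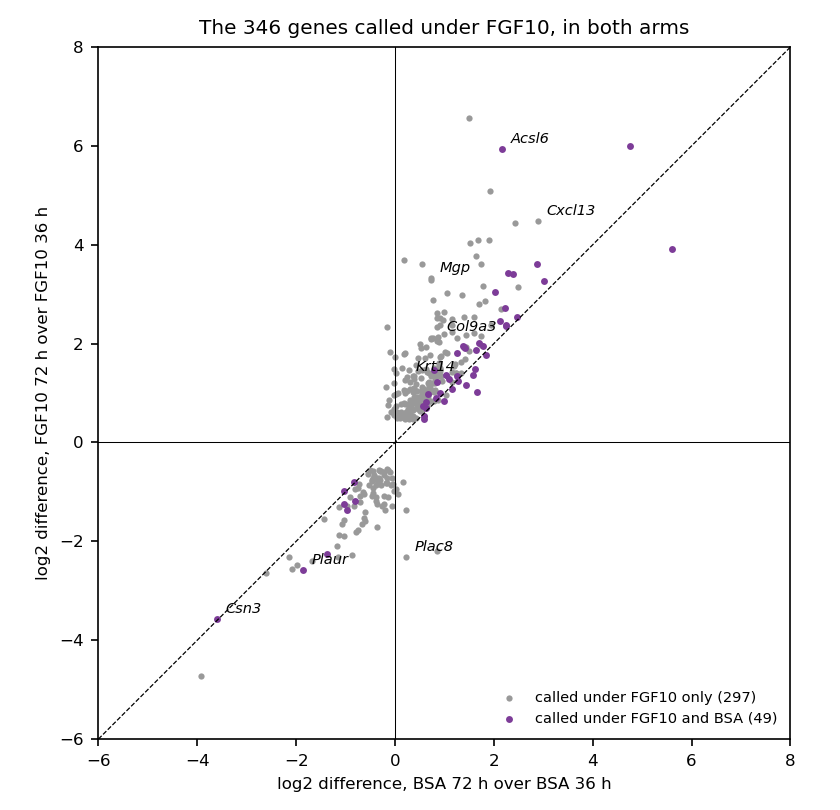
Log2 difference of FGF10 72 h over FGF10 36 h (vertical axis) against BSA 72 h over BSA 36 h (horizontal axis) for the 346 genes called under FGF10, with the 49 also called under BSA in purple and a dashed line of equal change. Most points lie in the 2 quadrants of equal sign and farther from 0 under FGF10, while Csn3 lies on the line and Plac8 differs in sign.

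Marker lists of other cell types are given for both arms, with no test between them. The median of the endothelial list was 0.17 under FGF10 and 2.17 under BSA, that of the adipocyte list 0.23 and 1.91, and that of the fibroblast list 0.17 and 1.25. The immune list summed to 460 to 550 CPM at BSA 72 h and 181 to 285 CPM at BSA 36 h, where the FGF10 groups overlapped. The part of these cell types in the differences between the arms was not tested.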

How the data were processed

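Whole-number fragment counts per gene were deposited by the authors as 1 table, written by featureCounts 2.0.1 which summed fragment pairs in exons for each gene name with no strand option, per the file headers. A stranded poly(A) kit was used, per the labels' protocols, but antisense overlap cannot be separated in such counts, and fragments shared between paralogs were left out. The submitters' processing notes list cutadapt 1.9.1, HISAT2 2.2.1, HTSeq, DESeq2 and GRCm39. The headers name featureCounts in place of HTSeq and were followed.

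Of 54456 genes, 18140 passed filterByExpr (minimum count 10, minimum total 15). One fit of all 5 groups was made with edgeR 4.0.16 in R 4.3.3 (TMM scaling, robust quasi-likelihood, 10 residual degrees of freedom, common biological coefficient of variation 0.234), and a gene was called where its p, adjusted by Benjamini-Hochberg, was below 0.05. Each standard error was the size of the log2 difference divided by the root of its F value, and CPM use TMM-scaled library sizes. BSA 72 h libraries 2_1 and 2_2 may share a culture.

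The members, lists and alternatives were chosen with earlier results of these data known. Lists are described by counts and medians, with no set test. Named genes were a panel of EMT, FGF and lineage genes, the 12 largest rises and falls among calls with at least 5 CPM and no overlap, leaving out predicted genes and pseudogenes, up to 4 genes a list, and the 5 smallest p each way. Others are marked as chosen after seeing values. The pipeline was tested on simulated data. Alternatives were DESeq2 1.42.0 and limma voom 3.58.1, other scaling and filters, a replicate block and omission of each library. Promoter sequences came from RefSeq (GRCm38.p6) by symbol, matched for 117 of 153 named genes. No coordinates of the files' own build were mixed with these.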

Additional observations from a re-analysis of the deposited data

How the results depend on the processing

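The 346 calls (257 higher and 89 lower at FGF10 72 h) became 161 (121 and 40) in a fit of only the 2 groups compared, 671 (453 and 218) with the replicate number as a block, 779 (462 and 317) by the DESeq2 Wald test and 862 (478 and 384) by limma voom with sample weights. The share of calls that were higher was 74.3% in edgeR, 59.3% in DESeq2 and 55.5% in voom. DESeq2 size factors moved the median of all genes by -0.01. Lower calls numbered 135 without a filter on low counts and 58 with BSA 72 h libraries 2_1 and 2_2 summed. Leaving out 1 library at a time gave 99 to 434 calls, 78 to 312 higher and 21 to 136 lower. The 85 calls of BSA 72 h against BSA 36 h were 217 without a filter, 587 by DESeq2, 2683 by voom, 0 with the 2 libraries summed and 0 to 569 when 1 library was left out. The change between arms gave 1 call with the replicate block, Epgn, and 18 by DESeq2, against 0 in edgeR. The cause of these shifts was not tested.

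Replicate numbers were not taken as pairs, since the labels do not say what a number marks and the groups compared share only 2. Deviations of FGF10 72 h and FGF10 36 h libraries correlated at 0.134 for number 3 and -0.0467 for number 4. Over all 5 groups, 9 of 21 pairs of libraries with the same number correlated above 0.1, against 10 of 69 with different numbers, and the highest value was 0.449 between FGF10 36 h and BSA 36 h replicate 1, so libraries of some groups deviated together by number.

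Some uncalled genes turned in sign. When 1 library was left out, the log2 difference of Cdh1 ran from -0.26 to 0.12, that of Cdh2 from -0.0082 to 0.43, that of Snai2 from -0.17 to 0.22, that of Cldn5 from -3.87 to 3.34, that of Adipoq from -1.90 to 7.01 and that of Lep from 0 to 3.93. Above 0 were Cdh1 without FGF10 36 h replicate 1 (0.02), 36 h replicate 3 (0.12) or 72 h replicate 2 (0.05), and Snai2 without FGF10 36 h replicate 1 (0.22) or 72 h replicate 4 (0.02). Cdh2 fell below 0 without FGF10 72 h replicate 4, and Cldn5, Adipoq and Lep had their lowest values without FGF10 72 h replicate 2. With the replicate block the value was 0.0058 for Cdh1, 0.18 for Snai2, 0.042 for Etv5 and 0.019 for Mki67, and Cdh2 had -0.030 by voom. None of the 69 called genes turned in sign, 20 kept the call throughout and 49 lost it under at least 1 alternative, and 42 of 84 uncalled ones gained a call under at least 1.

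With 3 libraries a group the precision is limited, genes under about 1 CPM rest on few fragments, and with 3 against 3 no single-value permutation test can pass 0.05.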
